A study of Homo sapiens with 8 samples.

Results

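Among the genes with an N4-acetylcytidine (ac4C) peak in SiHa cells, 785 had a single peak that was split into at least 2 blocks, covered under 360 bases and had no counterpart under the same gene identifier in the knockout list. These 785 peaks, 1 per gene, were chosen from a list of 12924 SiHa peaks in 7291 genes. Of these genes, 5320 (73.0%) had no knockout peak, and 3387 of the 5320 had exactly 1 SiHa peak. The peaks studied here made up 23.2% of those 3387 (95% exact binomial interval 21.8 to 24.6%) and 6.07% of all SiHa peaks. Absence from the knockout list, the number of peaks per gene, the number of blocks and the size limit all served to choose them, so these features are described and not tested. Overlapping gene models were counted separately in the files: 32 of the 785 peaks shared bases with another of them, and together they covered 769 separate places. Bases shared with any SiHa peak of another identifier were found for 71 of the 785 (9.04%), so 1 peak per identifier does not always mean 1 peak at that place.

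The study compared NAT10-knockout SiHa cells with SiHa cells that retain NAT10. SiHa is an HPV-positive line from a cervical squamous carcinoma. RNA captured with an ac4C antibody and the matching input RNA were sequenced from each population, with 2 libraries in each of 4 groups: knockout immunoprecipitate, knockout input, SiHa immunoprecipitate and SiHa input. How the knockout was made, and whether it is 1 clone, is not stated in the labels. The analysis starts from 1 peak list per population, with 4556 peaks in the knockout list and 12924 in the SiHa list. The knockout list is recognised by an added K in its name, which no label spells out. A peak is written as 1 or more blocks, and the gaps between blocks are stretches of the genome that the peak skips. A split peak is called a junction peak here by this layout alone, since no exon models were used. Neither list holds replicate values or read counts, so sequencing depth is unknown, no difference below has a replicate check, and all intervals cover the counting of peaks or genes only. A peak list gives no transcript level, so a missing peak cannot be told apart from a transcript that was scarce in that population.

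N4-acetylcytidine is an acetyl group on the base of cytidine. NAT10 is the acetyltransferase that places it on ribosomal RNA and transfer RNA, and it has been reported on messenger RNA as well. Introns are removed by splicing, which joins the base before a 5′ splice site, usually GU at the start of the intron, to the base after a 3′ splice site, usually AG at its end. A peak with blocks in neighbouring exons therefore follows the spliced transcript, and its position in the genome is broken by the intron between them.

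Where the letters could be read, nearly every gap began with GT. The sequence at a gap edge could be read only where it fell in RefSeq windows around annotated transcript starts (GRCh38.p14, 250 bases before to 50 after each start). This was the case for the 5′ edge of 31 of the 989 gaps in these peaks. GT stood at that edge in 30 of the 31 (96.8%, 83.3 to 99.9%), while GT makes up 4.62% of all neighbouring base pairs in the windows. The 30 include a gap of 2 bases in ENSG00000124562 and a gap of 5 bases in RPL26L1, both too short for an intron. The same reading gave GT in 50 of 52 gaps of the other SiHa junction peaks and in 26 of 26 gaps of knockout junction peaks. Whether block edges were set by reads or by an annotation is not stated in the sources used here. The letters therefore cannot show that spliced RNA was captured. Windows of 30 bases across the 5′ edge are printed on the sense strand to show these letters in named genes. The first 2 bases of the gap are in capitals, and LINC00426, a long noncoding RNA, is the exception. Among the others, UCHL5 is a deubiquitinase, PPL a plakin of desmosomes, ATF1 a transcription factor of the CREB family and MAD1L1 a spindle checkpoint protein.

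EVL (chr14:100132765-100132794, plus strand): gatgaaagccaaatgGTgagcaagcagccc
UCHL5 (chr1:193059618-193059647, minus strand): cgccggggattccagGTtcggttcccggga
STXBP4 (chr17:55081169-55081198, plus strand): tacttgatatggattGTaagttttctgcat
PPL (chr16:4895246-4895275, minus strand): tttgagggggagcagGTgcgtggggccagc
PTPA (chr9:129111617-129111646, plus strand): ggcagccgccgccagGTaaggccggcgggg
CCDC77 (chr12:389513-389542, plus strand): tcttctttactagagGTacggattgaggga
EWSR1 (chr22:29268335-29268364, plus strand): aaatggcgtccacggGTgagtatggtggaa
ATF1 (chr12:50764293-50764322, plus strand): aggcggcagccacagGTaagtggggggcgg
MAD1L1 (chr7:1980438-1980467, minus strand): ggcggacacgctcagGTacgtcccccagag
LINC00426 (chr13:30373988-30374017, minus strand): cacatatctaagcacATgacagtgagaggc

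The other end of the gaps was less regular. AG stood at the 3′ edge in 12 of the 32 gaps that could be read there (37.5%, 21.1 to 56.3%), against 7.26% of neighbouring base pairs in the windows. The gap of 5 bases in RPL26L1 is among the 12. In the other SiHa junction peaks AG stood in 18 of 69 (26.1%, 16.3 to 38.1%), and in knockout junction peaks in 5 of 29 (17.2%, 5.85 to 35.8%). All of these edges lie near an annotated start, because only there is sequence at hand, so the share cannot be carried over to the gaps that were not read. In 4 of the 951 gaps on chromosomes with such windows, the block after the gap began exactly at an annotated start. The gaps of PTPA and LINC00426 printed here are among the 4. The windows of 30 bases across the 3′ edge have the last 2 gap bases in capitals, first for 3 genes with AG and then for 3 without it.

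PPFIBP2 (chr11:7605723-7605752, plus strand): aactagtggccgcAGaagaaattagaggtt
PTPA (chr9:129111673-129111702, plus strand): tgggggcggtgccAGgtgtgggaggctcag
MAD1L1 (chr7:1980527-1980556, minus strand): tttgctttctcctAGctggagatggagctg
UCHL5 (chr1:193059507-193059536, minus strand): atcaccgccctttCTtctcaggccccagcc
ATF1 (chr12:50764465-50764494, plus strand): cccgcgcttccggCCtccgcgcctcggtgc
BSG (chr19:572550-572579, plus strand): gtccgcgcctccgCCgctttttatagcggc

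One gap coincided with a microRNA precursor. In RPS6KA4, which encodes a kinase of the stress and mitogen pathway, the peak had blocks of 19, 94 and 68 bases from 5′ to 3′. Its first gap of 102 bases coincided base for base with the RefSeq hairpin MIR1237, at chromosome 11, 64368602 to 64368703. A hairpin that fills a whole short intron is called a mirtron. The hairpin is printed with the first 2 and last 2 bases in capitals, and its 2 mature products with the seed, bases 2 to 8, in capitals.

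MIR1237: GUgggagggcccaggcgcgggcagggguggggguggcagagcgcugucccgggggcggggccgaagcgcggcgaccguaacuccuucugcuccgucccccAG
hsa-miR-1237-5p: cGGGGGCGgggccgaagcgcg
hsa-miR-1237-3p: uCCUUCUGcuccgucccccag

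The RPS6KA4 peak had a deposited p of 0.0012. Another 3 gaps held a hairpin of RefSeq on the same strand, all in identifiers without a unique gene name: MIR12136, MIR135A1 and MIR6869. MIR6869 shared its 5′ end with the gap, which was 80 bases long.

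The 10 named genes with the smallest p had varied roles. The deposited p of a peak was used to order peaks within the SiHa list, and it is the authors' own value. FOXP1, a forkhead transcription factor (ENSG00000114861, chromosome 3, 70959215 to 70966043, minus strand), had a p listed at 0. Its peak had 154 bases before and 177 bases after a gap of 6498 bases, and its centre lay at 98.7% of the gene span from the 5′ end. FIP1L1, a subunit of the cleavage and polyadenylation machinery, also had a p listed at 0, with 179 and 92 bases around a gap of 5408 bases. The third p listed at 0 belonged to ENSG00000234961 on chromosome 10, which received no RefSeq name.

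DDX55, a DEAD-box RNA helicase, had a p of 1e-303 and 100 and 200 bases around a gap of 239 bases. ILRUN, a regulator of inflammatory and antiviral signalling, had a p of 1e-275 and a gap of 15954 bases. BDNF-AS, a long noncoding RNA antisense to the BDNF gene, had a p of 1e-243. MACO1, a membrane protein of the endoplasmic reticulum, had a p of 1e-211, with the junction near the middle of the peak at 145 and 155 bases. SNRPD2, an Sm core protein of the spliceosomal snRNPs, had a p of 1e-180. ETF1, the release factor that ends translation at stop codons, had a p of 1e-164, with 38 bases before the junction and 292 after it. SPOCK1, a secreted proteoglycan, had a p of 1e-163, and CHTOP, an mRNA export factor, had a p of 1e-149. In 9 of these 10 named genes the peak had 2 blocks, and SNRPD2 had 4.

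**Figure D1:**
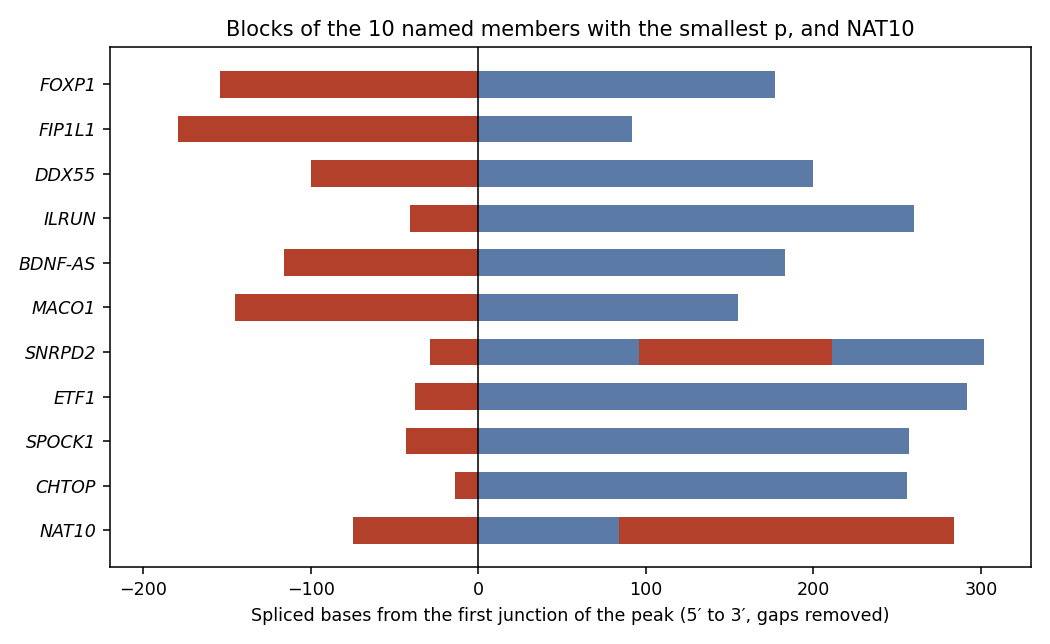
Blocks of the peak in the 10 named genes with the smallest deposited p and in NAT10, drawn to scale in spliced bases from the first junction of the peak (vertical line), 5′ to 3′, with gaps removed. Colours alternate from block to block; FOXP1 and MACO1 had their junction near the middle, while ETF1, SPOCK1 and CHTOP had 38, 43 and 14 bases before it.

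NAT10 itself was among the 785. Its peak (ENSG00000135372, chromosome 11, 34142274 to 34146283, plus strand) had blocks of 75, 84 and 200 bases, gaps of 1096 and 2555 bases and a p of 5e-37. At 359 bases it lay just inside the limit, together with GLT8D1, a glycosyltransferase family member (p of 6.3e-43), and RAB9A, a GTPase of late endosomes (p of 4e-36). The nearest named genes outside the limit, at 360 bases each, were GOLGA5, a Golgi protein (p of 1e-161), HARS1, histidyl-tRNA synthetase (p of 1e-47), and PSMD5, an assembly chaperone of the proteasome (p of 1.3e-47). Of the 126 junction peaks outside the limit, 13 had exactly 360 bases.

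Most of the 785 peaks had a single gap. Of these peaks 605 (77.1%, 74 to 80%) had 2 blocks, 158 had 3, 21 had 4 and 1 had 6. The peak with 6 blocks had no unique name, and the 4-block peaks described are the 4 named ones with the smallest p. In MRPL58, a peptidyl-tRNA hydrolase of the mitochondrial ribosome, the blocks had 1, 109, 60 and 131 bases (p of 1.3e-39). In PSMC1, an ATPase of the proteasome base, they had 46, 54, 97 and 103 bases (p of 3.2e-26). In EVL, which promotes actin filament growth, they had 26, 122, 61 and 31 bases (p of 1.3e-16). SNRPD2 had 29, 96, 115 and 91 bases.

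The median peak covered 180 bases (quartiles 151 and 210), and sizes came in steps of 30. In 687 peaks (87.5%) the summed blocks lay within 1 base of a multiple of 30, and 286 (36.4%) lay within 1 base of 180. The single-block peaks of SiHa-only genes with 1 peak, 2283 under the same limit, also had a median of 180 bases and the same quartiles. In this set 2036 (89.2%) lay within 1 base of a multiple of 30. Sizes therefore followed a grid in spliced bases with and without a junction.

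**Figure D2:**
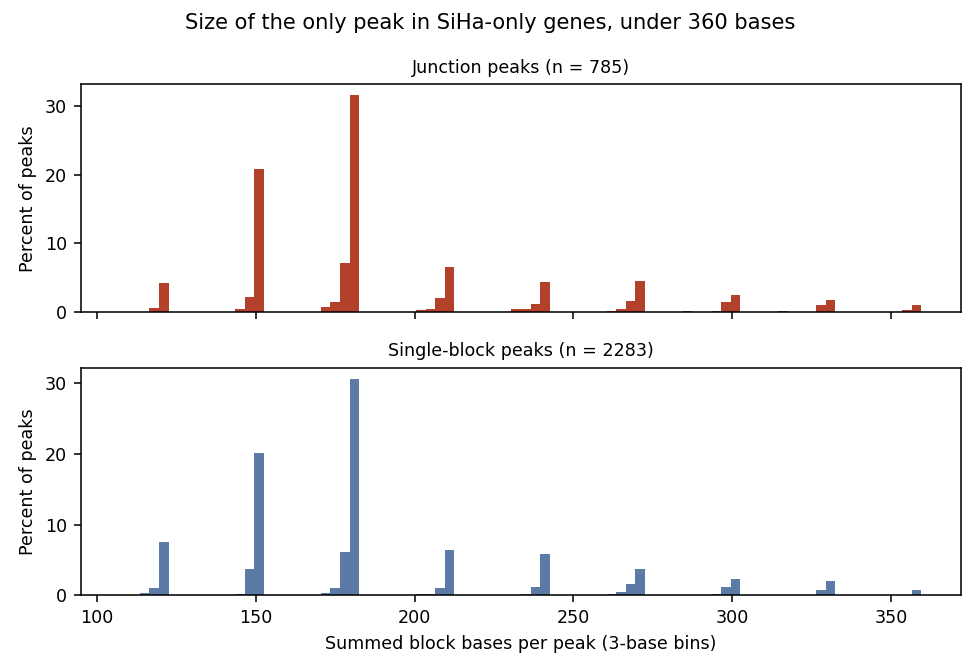
Summed block bases of the only peak in SiHa-only genes, as percent of peaks in bins of 3 bases, for 785 junction peaks (top) and 2283 single-block peaks (bottom), all under 360 bases. Both distributions stand in narrow columns at multiples of 30, the tallest at 180 bases.

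The junction often lay off the centre of the peak. In the 605 peaks with 2 blocks the shorter side held a median of 26.4% of the bases (interval of the median 24.0 to 28.0%), or 45 bases. In the other 2-block SiHa peaks this median was 22.7% and in 2-block knockout peaks 28.2%, but neither of these sets had a size limit. Without the limit, the only peaks of SiHa-only genes with 2 blocks had a median of 24.0%. The longer side was more often the 3′ side: the 5′ side held more bases in 237 of 605 peaks (39.2%, 35.3 to 43.2%), and in 3 the sides were equal. In 65 of the 605 peaks (10.7%) 1 side had fewer than 10 bases. Neither this share nor that of the longer 3′ side was computed for other junction peaks. COA3, an assembly factor of cytochrome c oxidase (p of 1.3e-28), had a 5′ block of 1 base, as MRPL58 did. RAB9A had 4 bases before its junction and 355 after it.

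The skipped stretches ran from 2 to 319881 bases, with a median of 1378 (quartiles 477 and 3605). The median gap was 1448 bases in the other SiHa junction peaks, and 1391 bases in knockout junction peaks, both taken without a size limit. Gaps of at least 10000 bases made up 102 of the 989 (10.3%), and 9 had at least 50000. The longest belonged to KCNIP4, a potassium channel-interacting protein, whose p was 0.0016. XRCC4, a factor of DNA end joining, skipped 84566 bases (p of 0.027). STXBP4, a syntaxin-binding protein, skipped 60126 and 18429 bases (p of 4.1e-10), and KIF9-AS1, an antisense RNA, 62370 bases (p of 6.3e-19).

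At the other end, 11 gaps (1.11%) were shorter than 50 bases. Gaps of a few bases are too short for an intron, and the shortest, of 2 bases, lay in ENSG00000124562, which has no unique name. The named genes with a gap under 50 bases were NONO, RBM26, WDR46 and RPL26L1, and the other 7 identifiers had no unique name. RPL26L1, a paralog of a ribosomal protein, had a gap of 5 bases beside one of 416. NONO, a nuclear RNA-binding protein of paraspeckles, had the shortest summed gap among named genes, 39 bases (p of 5e-15). RMDN1 followed with 53 bases, RFK, the kinase that makes flavin mononucleotide, with 54, and PTPA, an activator of protein phosphatase 2A, with 56.

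**Figure D3:**
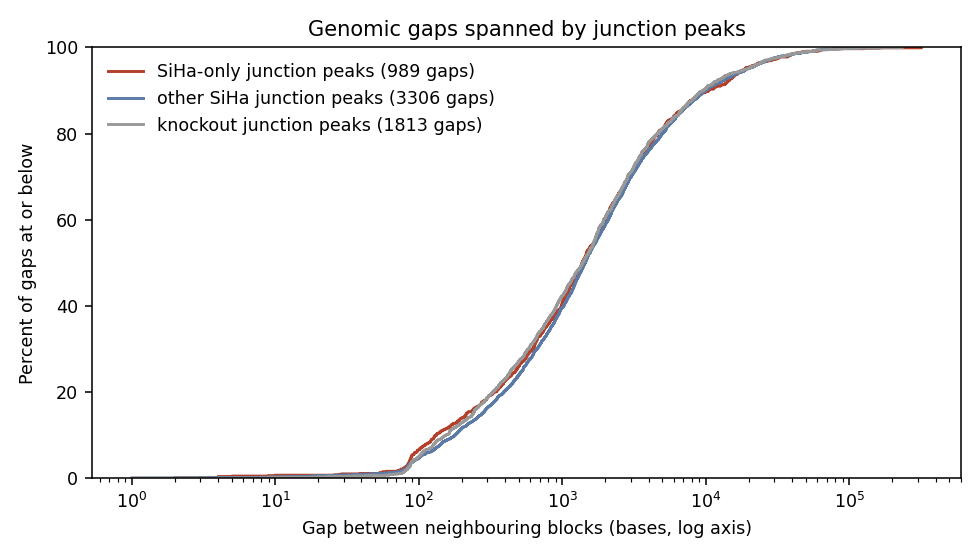
Length of the gaps between neighbouring blocks on a log axis, as the percent of gaps at or below each length, for 989 gaps of the SiHa-only junction peaks, 3306 gaps of other SiHa junction peaks and 1813 gaps of knockout junction peaks. The 3 curves lie close together, with medians of 1378, 1448 and 1391 bases.

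In strength, the junction peaks and single-block peaks of like size overlapped. The median −log10 p was 4.89 in the junction peaks (interval 4.13 to 5.39), 4.08 in the single-block peaks and 6.05 over all SiHa peaks. A −log10 p above 8 was reached by 295 junction peaks (37.6%, 34.2 to 41.1%) and by 668 single-block peaks (29.3%, 27.4 to 31.2%). Larger peaks had smaller p. Peaks of 117 to 121 bases had a median −log10 p of 1.77, those of 172 to 181 bases 3.51 and those of 317 to 359 bases 27.9. Within the class of 172 to 181 bases, the most common, the median was 3.51 in junction peaks (3.44 to 4.12) and 3.8 in single-block peaks (3.44 to 4.08). In the class of 201 to 241 bases it was 11 in junction peaks (8.92 to 12.2), and 8.55 in the single-block peaks of 199 to 241 bases (7.38 to 9.85). Among SiHa peaks with −log10 p above 8 alone, the order of the medians turned: 16.2 in 455 junction peaks and 17.2 in 1048 single-block peaks.

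**Figure D4:**
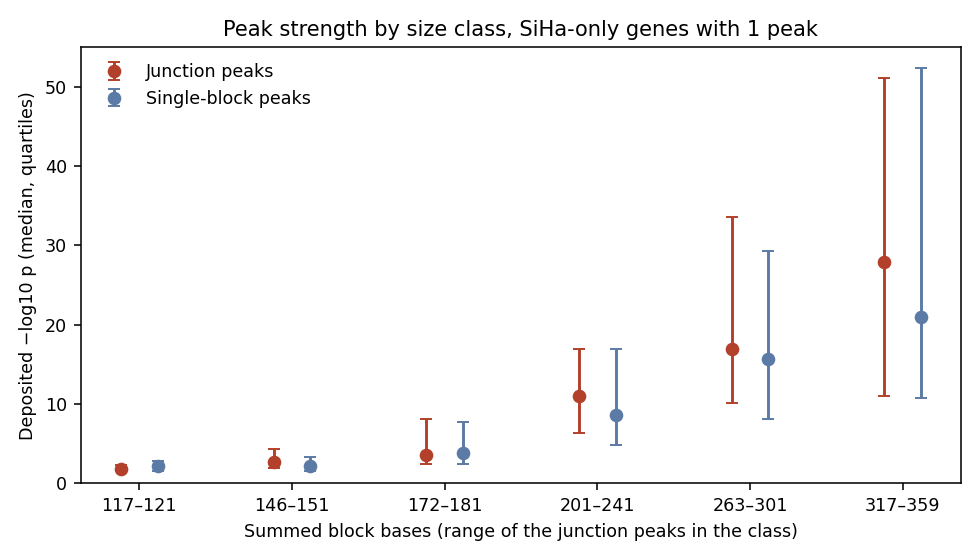
Deposited −log10 p (points, medians; bars, quartiles) by summed block bases for junction peaks and single-block peaks of SiHa-only genes with 1 peak. The medians of junction peaks climb from 1.77 in the smallest class to 27.9 in the largest, and the quartile bars of the 2 kinds of peak overlap in every class.

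Many of the weaker peaks carried the same p. The p of 0.027 was shared by 84 of the 785 peaks (10.7%), 0.0066 by 66, 0.0016 by 45 and 0.00036 by 27. The 8 commonest values accounted for 271 junction peaks (34.5%, 31.2 to 38.0%) and for 1013 single-block peaks (44.4%, 42.3 to 46.4%). XRCC4, KCNIP4 and RFK, named above for their gaps, have p-values from this series.

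Junction peaks were about as common in SiHa-only genes as in genes found in both lists. Peaks with 2 or more blocks made up 26.9% of the single peaks of SiHa-only genes (25.4 to 28.4%) and 28.0% of the single SiHa peaks of genes found in both lists (25.1 to 31.0%). The share was 23.6% in SiHa-only genes with several peaks and 31.3% in the knockout list. Among genes whose 1 SiHa peak had 2 or more blocks and stayed under the limit, 785 of 991 had no knockout peak (79.2%, 76.6 to 81.7%), against 2283 of 2840 with a single-block peak (80.4%, 78.9 to 81.8%). The intervals overlap, and no test was made because the knockout list entered the choice of peaks. The 206 junction peaks of genes in both lists had a median −log10 p of 7.96 (5.39 to 9.74). By position, 1 of the 785 peaks shared bases with a knockout peak filed under another identifier on the same strand.

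The position along the gene differed from that of single-block peaks. Names were given to 582 of the 785 identifiers (74.1%) by position and strand. In these, the peak centre lay at a median of 65.1% of the RefSeq gene span from the 5′ end (60.4 to 70.0%), against 86.1% in single-block peaks (84.0 to 87.7%). The last 10% of the span held 112 junction peaks (19.2%, 16.1 to 22.7%) and 776 of 1782 single-block peaks (43.5%, 41.2 to 45.9%). Junction peaks of genes in both lists had a median of 66.4%, close to that of the SiHa-only genes. The centre is the midpoint between the outer ends of the peak in the genome. In a junction peak it can therefore lie in the gap, while in a single-block peak it lies on the peak itself. Spans include introns, no exon models were used, and the part of exon length in this difference was not tested. Of the 10 named genes with the smallest p, 8 had the peak centre beyond that median of 65.1%. They were SPOCK1 at 99.3%, FOXP1 at 98.7%, DDX55 at 94.4%, FIP1L1 at 93.9%, ETF1 at 93.8%, ILRUN at 89.8%, CHTOP at 88.1% and BDNF-AS at 79.4%. SNRPD2 at 48.5% and MACO1 at 38.5% lay before it.

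**Figure D5:**
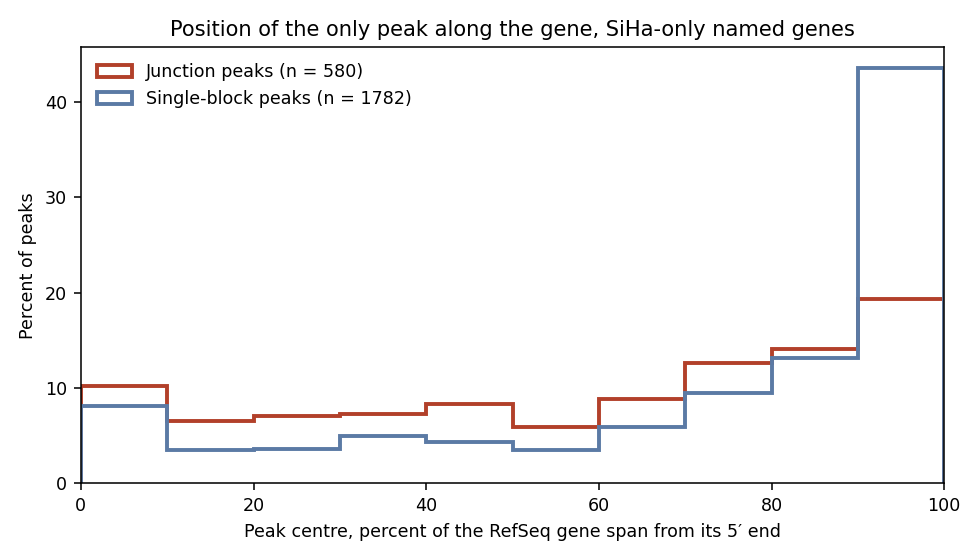
Centre of the only peak in SiHa-only named genes, as percent of the RefSeq gene span from its 5′ end in bins of 10, for junction peaks and 1782 single-block peaks; junction peaks with their centre outside the span are left out. The last bin holds 19.2% of the 582 named junction peaks, which are spread more evenly along the gene, and 43.5% of the single-block peaks.

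Annotated transcript starts, of the peak's own gene or of another, were covered more often by junction peaks. Off chromosomes 8 and MT, a block covered an annotated start on the same strand in 47 of 753 junction peaks (6.24%, 4.62 to 8.21%) and in 28 of 2207 single-block peaks (1.27%, 0.845 to 1.83%). EWSR1, an RNA-binding protein rearranged in Ewing sarcoma, was one of them, with 102 bases before and 109 bases after its junction (p of 2.7e-06). PTPA, ZNF143 and PFDN1, a prefoldin subunit, were others. Many of the 47 had no unique gene name. Among named genes, the first 10% of the gene span held 10.1% of junction peak centres (7.81 to 12.9%). For single-block peaks this share was 8.08% (6.86 to 9.44%), so the intervals overlap. The first 50 transcribed bases at the covered starts had a median of 26% cytidine in junction peaks (49 windows), 28% in single-block peaks (29 windows) and 28% over all 34719 distinct windows of annotated starts. A run of 3 cytidines spaced 2 bases apart (CNNCNNCNN) was searched because ac4C has been reported in such contexts. On the sense strand it was found in 26 of the 49 windows of junction peaks (53.1%), in 19 of the 29 of single-block peaks (65.5%) and in 55.4% of all windows. On the other strand the shares were 71.4% in junction peaks, 93.1% in single-block peaks and 64.1% in all windows.

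Over all 5829 named genes with a SiHa peak, 582 (9.98%) belonged to the junction set. Each of 36 gene lists was read against this share, without a test. Only genes without a knockout peak could belong. They were 4191 of the 5829, and their part of each list varied. Several lists were drawn by symbol pattern, so a list can hold genes of another role. Ordered by role, the RNA and protein machinery came first. Ribosome biogenesis factors had 8 members among 48 named genes with a SiHa peak (16.7%), with DKC1, the pseudouridine synthase of box H/ACA particles (p of 3.2e-64), NAT10, NIP7 (p of 2e-34) and WDR75 (p of 7.9e-15). RNA modification enzymes and reader proteins had 5 of 38 (13.2%), among them METTL14, the partner of the m6A writer METTL3 (p of 5.4e-06), the mRNA-binding protein IGF2BP3 (p of 2.8e-09) and TRMT10A, a tRNA methyltransferase (p of 0.01). RNA helicases had 5 of 24 (20.8%), with DDX19B, an mRNA export helicase (p of 1.3e-19), after DDX55.

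Splicing factors and hnRNPs had 7 of 52 (13.5%). Besides SNRPD2 they included PRPF19, a ubiquitin ligase of the spliceosome (p of 1.3e-23), RBM26 (p of 5e-20) and LSM10, a component of the histone pre-mRNA particle (p of 1e-13). The peak of PRPF19 skipped 2 short gaps of 83 and 117 bases. RNA decay genes had 1 of 34 (2.94%), the deadenylase PARN, and Mediator, general transcription and RNA polymerase genes had 4 of 46 (8.7%). Nuclear pore and transport genes had 2 of 19 (10.5%).

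In translation, mitochondrial ribosomal proteins had 6 of 34 (17.6%) and cytosolic ribosomal proteins 4 of 34 (11.8%). MRPS26 had the smallest p of the mitochondrial group (2.5e-74), with 44 and 224 bases around its junction. RPL21 (p of 1.3e-14) and RPL35 (p of 3.2e-13) led the cytosolic group. Ribosomal protein genes have many near-identical pseudogenes, and how the authors treated reads shared with them is not known, so these peaks are uncertain. The list of EIF, EEF and related symbols had 3 of 33 (9.09%), of which ETF1 acts in translation itself. The other two were the eIF2α kinase EIF2AK3 (p of 6.3e-13) and EIF4ENIF1, a partner of the cap-binding protein eIF4E (p of 1.9e-09). Of aminoacyl-tRNA synthetases, 1 of 14 was in the set, WARS1.

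The shares of cell cycle and DNA repair genes lay above the 9.98% of all named genes. Cell cycle and mitosis genes had 8 of 28 (28.6%, 13.2 to 48.7%). CDKN1B, the cyclin-dependent kinase inhibitor p27, had a p of 4e-42, with 239 bases before and 61 after its junction. CDCA8, a subunit of the chromosomal passenger complex, had a p of 2e-29. RB1, the retinoblastoma protein, had a p of 1.8e-10, and E2F7, an atypical E2F repressor, 2.5e-09. DNA replication and repair genes had 10 of 45 (22.2%, 11.2 to 37.1%). The strongest was PRKDC, the catalytic subunit of DNA-dependent protein kinase (p of 7.9e-74), and FANCM, a Fanconi anaemia helicase, followed (p of 1.3e-37). RFC1, the large clamp loader subunit (p of 1.3e-12), DDB2, a sensor of ultraviolet damage (p of 2e-11), and XRCC1, a scaffold of single-strand break repair (p of 1e-06), came next. The median −log10 p of the repair members was 4.72, against 4.98 over all 582 named members.

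Mitochondrial metabolism had the highest share of the lists. Of 16 named genes for the citric acid cycle and mitochondrial enzymes, 6 were in the set (37.5%, 15.2 to 64.6%). Among them were the fusion protein MFN1 (p of 1e-06), the isocitrate dehydrogenase subunit IDH3B, the electron transfer flavoprotein ETFA, the proline synthesis enzyme ALDH18A1 and the malic enzyme ME3 (p of 0.027). Respiratory chain and ATP synthase subunits had 3 of 10 (30%), ATP5F1C (p of 2e-09), COX6C and ATP5MJ. Fatty acid and sterol synthesis had 5 of 30 (16.7%), among them ELOVL1, ACSL4 and LPIN1, with a median −log10 p of 2.8. For glycolysis and glucose uptake the count was 0 of 12, which allows a share of up to 25% by a limit of 3 counts (exact interval 0 to 26.5%). Only 7 of these 12 had no knockout peak and could belong. Solute carriers had 8 members (7.48%), with the nucleotide transporter SLC17A9 strongest (p of 5e-41).

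In traffic and protein quality control, RAB, ARF and coat proteins had 8 of 56 (14.3%) with a median −log10 p of 25.3. SEC24A, a cargo subunit of the COPII coat (p of 2e-47), RAB35 (p of 2.5e-40), RAB32 (p of 7.9e-38) and RAB9A had the smallest p. Chaperones had 6 of 48 (12.5%), led by HSPH1, a nucleotide exchange factor of HSP70 (p of 1.3e-29), and PDIA3, a protein disulfide isomerase (p of 3.2e-29). Proteasome subunits had 3 of 12 (25%), of which PSMD4, a ubiquitin receptor, had a p of 1e-117. Ubiquitin conjugation and removal had 1 of 49 (2.04%), the VPS, SNX and CHMP symbols of endosomal sorting 4 of 28 (14.3%), and autophagy and lysosome genes 4 of 35 (11.4%). The endosomal members were SNX14, VPS41, VPS13C and VPS72, of which VPS72 is a subunit of chromatin remodelling complexes despite its symbol.

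Actin cytoskeleton and adhesion genes had 10 of 72 (13.9%), led by ARPC5L, a subunit of the Arp2/3 complex (p of 4e-40), WASF2, which activates that complex (p of 5e-28), and RDX, which links actin to the membrane (p of 6.3e-22). Kinesins, dyneins, tubulins and microtubule-associated proteins had 3 of 42 (7.14%), and catalytic and regulatory subunits of protein phosphatases 3 of 34 (8.82%), with PPP1CC strongest (p of 1.6e-35). Of integrins, collagens and laminins 0 of 23 were in the set, which allows a share of up to 13% by a limit of 3 counts (exact interval 0 to 14.8%). Only 10 of these 23 had no knockout peak and could belong.

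Several lists of regulators and signalling genes had lower shares than 9.98%. No knockout peak was found for 178 of the 229 ZNF genes with a SiHa peak and 35 of the 68 chromatin regulators. The same held for 47 of the 63 receptor tyrosine kinase, MAPK, PI3K and mTOR genes and 35 of the 40 Notch and Wnt genes. How far this enters the shares was not tested. Genes of the ZNF family had 11 of 229 (4.8%, 2.42 to 8.43%), among them ZNF330 (p of 7.9e-15) and ZNF141 (p of 1.6e-13). Chromatin regulators had 3 of 68 (4.41%, 0.919 to 12.4%). They were CHD4, the remodelling ATPase of the NuRD complex (p of 2e-33), and HDAC6, a cytoplasmic deacetylase (p of 7.9e-29). The third was RCOR1, a corepressor of the LSD1 complex (p of 0.0017). Receptor tyrosine kinase, MAPK, PI3K and mTOR genes had 3 of 63 (4.76%, 0.993 to 13.3%), with a median −log10 p of 1.72. Notch and Wnt genes had 1 of 40 (2.5%, 0.0633 to 13.2%), the Wnt acyltransferase PORCN. The p53 pathway and apoptosis list had 1 of 23 (4.35%), CASP6, and interferon and antigen presentation genes 3 of 22 (13.6%), RSAD2, MX1 and STAT3. Among squamous keratinocyte markers, 10 named genes had a SiHa peak and 1, S100A2, was in the set. Among markers of other cell types the count was 0 of 5, which allows a share of up to 60% by a limit of 3 counts (exact interval 0 to 52.2%). Only 1 of the 5 had no knockout peak and could belong, so this count says little. The lists share genes, the interval of 4 of them leaves out 9.98% (cell cycle, DNA repair, citric acid cycle and ZNF genes), and the intervals are not adjusted for the number of lists.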

How the data were processed

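The authors deposited 2 peak lists, 1 per population, from experiments with 2 immunoprecipitated and 2 input libraries each. Per the labels, a stranded mRNA kit was used, and per the submitters' processing notes the build is GRCh38 (hg38) and FastQC 0.11.7 was run. No aligner, peak caller, annotation or treatment of replicates was given in the sources used here. Per the file headers, each peak has a score, which holds the authors' p-value, and counts of blocks. In the knockout list the authors also deposited a ratio (fold enrichment, not used), and scores holding log10 of the p-value and of the false discovery rate.

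From the SiHa list 1 duplicate and 3 peaks off chromosomes 1 to 22, X and MT were dropped, and from the knockout list 3. Block coordinates were taken from the files. An identifier received a RefSeq name when its blocks touched 1 gene span on its own strand (or of unlisted strand), with at least 90% of bases inside and no rival identifier; 582 of 785 received one, and 494 without use of strand. Intervals are exact binomial (Clopper-Pearson, 95%), for medians by order statistics (Python 3.11.15, SciPy 1.17.1). Functions were tested on simulated lists. A limit for a count of 0 uses 3 counts.

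No test was run, since the lists hold no replicates. Genes named are NAT10, the 10 with the smallest p, the 4 with the longest and shortest gaps and most blocks, the 3 nearest either side of the limit and up to 5 of each list. Genes shown for their sequence, starts, 1-base blocks or RPS6KA4 were chosen after their values were seen. The members and lists were chosen with earlier results of these data known.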

Additional observations from a re-analysis of the deposited data

How the results depend on the processing

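The values above were recomputed under other settings, of which outer blocks of at least 10 bases and naming without strand were chosen after seeing the data. A limit of 270 bases gave a share of single-peak SiHa-only genes of 20.2% and a median −log10 p of 4.08. With no limit these were 26.9% and 6.39, the median size was 181 bases and the shorter side of 2-block peaks held 24.0%. With SiHa peaks of −log10 p above 8 alone, 455 peaks remained, with a median −log10 p of 16.2, 240 bases and a shorter side of 22.8%; 295 of them were among the 785, since a gene with several peaks could now have 1. With outer blocks of at least 10 bases the share was 20.0% and the shorter side 28.3%. The share with a name was 96.2% when the span with the most bases was taken and 62.9% without strand. The other 40 values stayed within 1.5 times the count or within the interval of the main value, including every value with knockout peaks of a false discovery rate of at most 0.05, gaps of at least 50 bases and no knockout block within the peak span. No paired analysis was possible because the lists hold no replicate values, and for the same reason no library could be left out. Depth is unknown, so a weak peak and a scarce transcript cannot be told apart.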
